A study of Mus musculus with 24 samples.

Results

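Rasl11a and Veph1 are 2 of the 54432 genes measured by RNA sequencing in mpkCCD cells treated with dDAVP or vehicle. mpkCCD is an immortalised mouse epithelial line of kidney cortical collecting duct origin, and dDAVP (desmopressin) is a synthetic vasopressin analogue that acts on the V2 receptor of principal cells. Both genes were chosen because their RNA was lower with dDAVP than with vehicle in these same libraries, so their difference between dDAVP and vehicle is described here without a test. The study followed the RNA response to vasopressin over time. The groups tested were dDAVP for 3, 6, 12 or 24 h, each set against vehicle for the same time, with 3 libraries in each of the 8 groups. All groups shared the C57BL/6 strain background, the wild type genotype label, passages 10 to 11, 6 days of growth on a filter support and 24 h of minimal medium, after which dDAVP or vehicle was added to the basolateral side. Nothing in the labels says whether the replicates came from separate cultures. The p-values therefore measure library-to-library spread alone, some of which may be technical.

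Rasl11a encodes a small GTPase of the Ras superfamily that has been reported to associate with ribosomal DNA chromatin and the factor UBF and to promote synthesis of ribosomal RNA precursors. Veph1 encodes a protein with a pleckstrin homology domain that is the mouse counterpart of Drosophila melted. In flies melted has been placed between the insulin and TOR pathway, through Tsc1 and FOXO, and the Hippo pathway. The human protein has been reported to dampen signalling by TGF-beta receptors. In the collecting duct, vasopressin acts through cyclic AMP and is best known for raising the water channel Aqp2.

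Rasl11a (ENSMUSG00000029641) lies on the plus strand of chromosome 5, from 146845071 to 146847726 in GRCm38, with 2 annotated transcripts and 1201 exon bases. Veph1 (ENSMUSG00000027831) lies on the minus strand of chromosome 3, from 66053558 to 66296837, with 3 transcripts and 7086 exon bases. The RefSeq promoter windows of both genes (GRCm38.p6, 250 bases before to 50 bases after the start) are shown because cyclic AMP response elements (CRE) are the classical sites of this hormone's pathway. Capitals mark the motifs found among the 5 searched on both strands, and the windows are chr5:146844821-146845120 (plus strand) and chr3:66296788-66297087 (minus strand).
Rasl11a: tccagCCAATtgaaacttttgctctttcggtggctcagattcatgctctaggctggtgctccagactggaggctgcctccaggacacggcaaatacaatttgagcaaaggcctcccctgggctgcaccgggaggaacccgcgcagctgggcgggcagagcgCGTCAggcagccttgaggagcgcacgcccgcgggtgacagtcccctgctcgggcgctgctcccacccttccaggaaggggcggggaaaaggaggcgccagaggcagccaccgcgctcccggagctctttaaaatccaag
Veph1: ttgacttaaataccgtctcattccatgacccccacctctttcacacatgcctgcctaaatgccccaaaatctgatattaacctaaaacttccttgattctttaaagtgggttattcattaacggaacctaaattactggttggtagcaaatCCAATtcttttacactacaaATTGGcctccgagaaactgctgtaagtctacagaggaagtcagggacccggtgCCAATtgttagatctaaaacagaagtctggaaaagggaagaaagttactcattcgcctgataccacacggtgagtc

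The 2 windows differed in base composition, in the shorter CRE core and in the number and place of CCAAT matches. Both lacked the other motifs searched. The Rasl11a window was 63.67% G or C with 19 CpG pairs, and 79.1% of mouse promoters had a lower share. The Veph1 window was 41.67% G or C with 6 CpG pairs, and 13.4% of promoters had a lower share. The full CRE (TGACGTCA) was in neither window and in 1.79% of 32851 promoters. The shorter CRE core (TGACG) was found once in Rasl11a, on the minus strand at -89, and not in Veph1, against 20.8% of promoters. CCAAT was found once in Rasl11a, at -245, and 3 times in Veph1, at -99, -79 (minus strand) and -26, against 37.4% of promoters. The AP-1 motif TGANTCA (in 7.81% of promoters) and the TATA box TATAAA (in 13.6%) were in neither window. The full CRE also holds the shorter core, no other matches overlapped, and a match of letters is not a binding site.

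Libraries held 17.2 to 27.6 M estimated counts (M, counts in units of 10 to the power 6), and 29743 genes had enough counts to be tested. Aqp2 followed the labels in all libraries, at 109.67 to 235 CPM in the 12 dDAVP libraries and 4.13 to 8.12 CPM in the 12 vehicle libraries. CPM is counts per M counts after scaling of the library sizes. All 14 markers of principal cells and epithelium had a median of at least 1 CPM, although the channel genes Aqp4 and Scnn1b were near 1 CPM (medians 1.15 and 1.46). Of the markers of other cells, 0 of 5 for intercalated cells, 2 of 4 for proximal tubule, 1 of 3 for thick limb and distal tubule, 1 of 2 for podocytes, 2 of 3 for endothelium, 1 of 3 for fibroblasts and 2 of 2 for leukocytes had such a median. The proximal tubule receptor Lrp2 was high among them, at 43.7 to 71.4 CPM (median 55.5), and the median of each of the others was at most 5.8 CPM. The summed level of each of the 7 lists of markers of other kidney and non-epithelial cells was 0.151 to 4.71 TPM in dDAVP libraries and 0.193 to 6.72 TPM in vehicle libraries (TPM, transcripts per M transcripts), and their part in the results was not tested. Olfactory and vomeronasal receptor genes, 1457 genes known from the nose, took up 0.135% to 0.901% of each library. The mean of this receptor share was lower in dDAVP libraries than in vehicle libraries at each time, at 0.373% against 0.629% at 3 h, 0.196% against 0.526% at 6 h, 0.334% against 0.477% at 12 h and 0.201% against 0.226% at 24 h. The libraries did not overlap at 6 h (0.135% to 0.276% with dDAVP and 0.443% to 0.581% with vehicle) but did at 3, 12 and 24 h. The share was added to a second model as a covariate, here called the receptor-share model.

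Rasl11a was low with dDAVP from the first time point on. At 3 h it had 2.81, 3.61 and 4.42 CPM in the dDAVP libraries, against 10.0, 11.9 and 15.2 CPM in the vehicle libraries. At 6 h it had 4.96, 6.99 and 6.04 CPM with dDAVP and 11.4, 11.7 and 13.1 CPM with vehicle. The highest dDAVP library lay below the lowest vehicle library at both times, by the wider margin at 3 h. At 12 h the dDAVP libraries had 7.20, 8.69 and 7.84 CPM and the vehicle libraries 11.4, 18.2 and 15.4 CPM. At 24 h the dDAVP libraries had 7.04, 9.32 and 7.33 CPM and the vehicle libraries 19.2, 18.2 and 15.0 CPM. Groups did not overlap at any time, and every one of the 12 dDAVP libraries (highest 9.32 CPM) lay below every one of the 12 vehicle libraries (lowest 10.0 CPM). Such separation at a single time was found in 8.06%, 33.2%, 2.24% and 5.92% of the genes tested at 3, 6, 12 and 24 h. It held at each of the 4 times for 4 genes (0.0134%) and across all 12 against all 12 libraries for 1 gene (0.00336%), Rasl11a itself, which was chosen for this difference. In bulk RNA, fewer cells expressing a gene and less RNA per cell cannot be told apart.

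The fitted log2 fold change of Rasl11a, dDAVP against vehicle, was -1.78 ± 0.203 (SE, 3 libraries a group) at 3 h. It was -1.02 ± 0.196 at 6 h, -0.92 ± 0.192 at 12 h and -1.15 ± 0.193 at 24 h. These are 29.1%, 49.5%, 52.8% and 45.1% of the vehicle level. Their mean was -1.22 ± 0.098. Among the 12747 genes that reached 5 CPM in a group, 2 had a lower change at 3 h, 861 at 6 h, 51 at 12 h and 15 at 24 h. In the receptor-share model the changes were -2.02 at 3 h, -1.53 at 6 h, -0.998 at 12 h and -1.20 at 24 h.

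**Figure D1:**
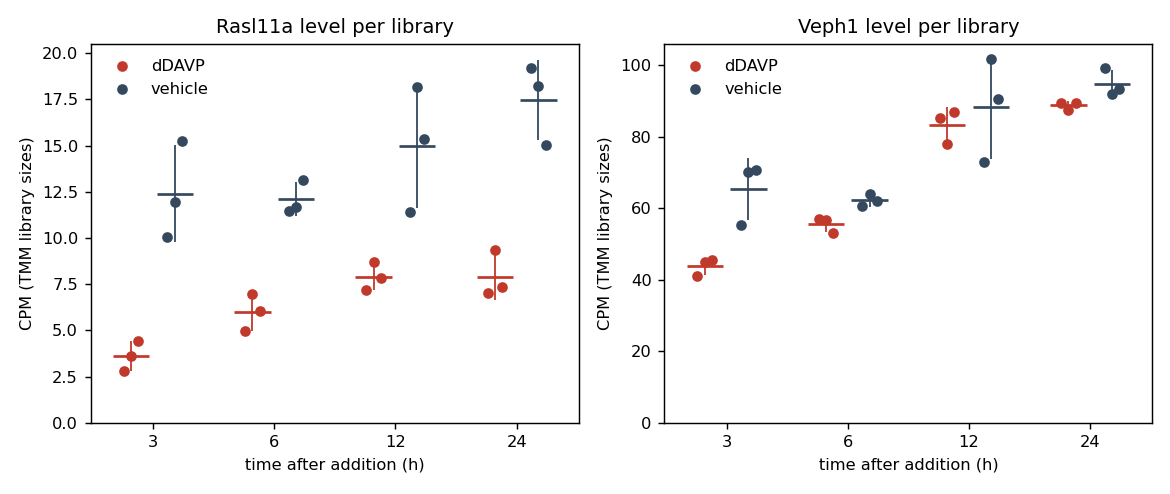
Level of Rasl11a (left) and Veph1 (right) in CPM against the time after addition of dDAVP or vehicle in h. Points are libraries, horizontal lines are means and vertical lines are 1 SD (3 libraries a group). All 12 dDAVP libraries of Rasl11a sit below all 12 vehicle libraries, while the Veph1 groups lie well apart at 3 h only and overlap at 12 h.

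Veph1 was more abundant in counts and its difference was mainly an early one. At 3 h it had 41.0, 44.9 and 45.5 CPM in the dDAVP libraries, against 55.3, 70.3 and 70.7 CPM in the vehicle libraries. At 6 h it had 57.1, 56.9 and 53.1 CPM with dDAVP and 60.6, 64.1 and 62.0 CPM with vehicle. The groups did not overlap at these times, but at 6 h the highest dDAVP library was at 57.1 CPM and the lowest vehicle library at 60.6 CPM. At 12 h the dDAVP libraries, at 85.4, 77.9 and 87.0 CPM, lay within the range of the vehicle libraries, at 72.9, 101.7 and 90.5 CPM. At 24 h the dDAVP libraries had 89.4, 87.7 and 89.6 CPM and the vehicle libraries 99.2, 92.1 and 93.3 CPM, which did not overlap by a small margin. Such separation was found in 8.06%, 33.2% and 5.92% of the genes tested at 3, 6 and 24 h.

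The fitted log2 fold change of Veph1 was -0.58 ± 0.109 (SE) at 3 h, or 66.9% of the vehicle level. It was -0.16 ± 0.109 at 6 h, -0.08 ± 0.108 at 12 h and -0.09 ± 0.108 at 24 h, with a mean of -0.23 ± 0.054. Among the 12747 genes that reached 5 CPM in a group, 538 had a lower change than Veph1 at 3 h, 2031 at 6 h, 2699 at 12 h and 2965 at 24 h. From 12 h on the change of Veph1 was smaller than its own SE. The sign at 12 h turned on 1 library: without vehicle replicate 2 the change was 0.08. In the receptor-share model the changes were -0.70, -0.42, -0.12 and -0.12 at 3, 6, 12 and 24 h. The 6 h value was the one most open to the scaling, at -0.05 with median-of-ratios size factors and -0.70 on log2(TPM + 1).

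Both genes differed less between dDAVP and vehicle at 24 h than at 3 h. The change at 24 h minus that at 3 h was 0.63 ± 0.277 (SE) for Rasl11a and 0.49 ± 0.153 for Veph1 on the log2 scale. It was not tested, since the genes were chosen on these changes. The median log2 change of the 12747 genes at 5 CPM or more was 0.18, 0.32, 0.07 and 0.00 at 3, 6, 12 and 24 h, and that of all tested genes was -0.14, -0.39, -0.05 and -0.03. Both genes lay below both medians at 3, 12 and 24 h, and at 6 h Veph1 lay above the median of all tested genes.

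**Figure D2:**
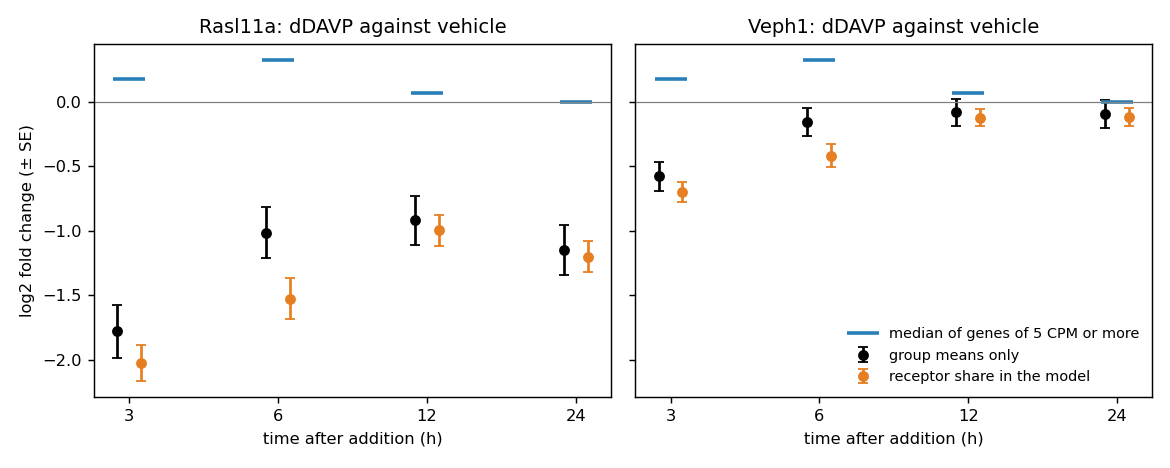
Fitted log2 fold change, dDAVP against vehicle, of Rasl11a (left) and Veph1 (right) by time in h, with SE bars. Black points are from the model with group means only, orange points from the model with the receptor share added, and blue bars are the median of the 12747 genes at 5 CPM or more. Rasl11a stays between -2.02 and -0.92 throughout, and Veph1 is at -0.58 at 3 h and near 0 at 12 and 24 h.

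Levels can be compared between the genes only per transcript length, in TPM. Over the 24 libraries Veph1 averaged 10.2 TPM and Rasl11a 7.03 TPM, ranks 6021 and 7556 among the 52297 genes above 0. In TPM the dDAVP and vehicle libraries also separated completely for Rasl11a, at 2.21 to 6.50 TPM with dDAVP and 9.14 to 12.8 TPM with vehicle. These are the same libraries as in CPM, and how many of all genes separate in TPM was not counted. On log2(TPM + 1), 35% of all tested genes were called lower with dDAVP in the mean effect and 0.582% higher (limma). Rasl11a was at 2.40 ± 0.27 TPM (SD, n = 3) with dDAVP and 10.3 ± 0.487 TPM with vehicle at 3 h, and at 2.96 ± 0.378 and 9.24 ± 0.127 TPM at 6 h. At 12 h it was at 5.45 ± 1.01 TPM with dDAVP and 10.4 ± 0.359 TPM with vehicle, and at 24 h at 4.53 ± 0.716 and 11.0 ± 1.67 TPM. Vehicle libraries therefore held nearly as much Rasl11a as Veph1 per transcript length. The ratio of Rasl11a to Veph1 TPM averaged 0.357, 0.539, 0.460 and 0.429 in dDAVP libraries and 0.889, 0.967, 0.770 and 0.914 in vehicle libraries at 3, 6, 12 and 24 h.

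For Veph1, TPM put dDAVP at 3 and 6 h further below vehicle, as a ratio, than CPM did. It was at 6.79 ± 0.476 TPM (SD, n = 3) with dDAVP and 11.6 ± 0.411 TPM with vehicle at 3 h. At 6 h it was at 5.51 ± 0.405 TPM with dDAVP and 9.61 ± 0.938 TPM with vehicle. At 12 h it was at 11.9 ± 0.473 and 13.5 ± 0.44 TPM, and at 24 h at 10.8 ± 1.4 and 12.1 ± 1.44 TPM, with dDAVP and with vehicle. In each library the gene with the highest TPM held 37.4% to 51.7% of the total. This bears on every TPM value, and its part in the gap was not tested. The median log2 change of all genes at 5 CPM or more was also lower on log2(TPM + 1), at -0.13 and -0.19 at 3 and 6 h. In the CPM fit these medians were 0.18 and 0.32.

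The level over time compares groups of 1 treatment with each other, whereas the genes were chosen on dDAVP against vehicle. The same libraries entered that choice, so these tests are not independent of it, least of all where they include dDAVP at 3 h. Veph1 changed over time in both treatments and was higher at 24 h than at 3 h in CPM. With dDAVP it averaged 43.8 ± 2.46, 55.7 ± 2.23, 83.4 ± 4.87 and 88.9 ± 1.07 CPM (SD) at 3, 6, 12 and 24 h (edgeR quasi-likelihood test, adjusted p = 2.92e-06), and 24 h lay above 3 h by 1.02 ± 0.11 (SE) on the log2 scale. With vehicle it averaged 65.4 ± 8.79, 62.2 ± 1.78, 88.4 ± 14.5 and 94.8 ± 3.82 CPM (adjusted p = 0.00117), and 24 h lay above 3 h by 0.54 ± 0.108. The mean receptor share of the same vehicle libraries was 0.629% at 3 h and 0.226% at 24 h, and in the receptor-share model the vehicle difference was 0.29 ± 0.0871 (adjusted p over time = 0.00133 in edgeR, where 2.59% of all tested genes passed), against 0.87 ± 0.0771 with dDAVP. In TPM vehicle was at 11.6, 9.61, 13.5 and 12.1 at 3, 6, 12 and 24 h. Since the 3 h libraries weighed on the choice, the test was also run over 6, 12 and 24 h, where Veph1 passed with dDAVP (adjusted p = 0.00197) and with vehicle (adjusted p = 0.00583) in edgeR's test. With median-of-ratios size factors these were 0.167 and 0.0955, and on log2(TPM + 0.1) the vehicle course over all 4 times gave 0.0667 (limma). Of all tested genes, 2.28% changed over time with dDAVP and 10.1% with vehicle, and over 6, 12 and 24 h 2.06% with dDAVP and 3.62% with vehicle. Over the 4 times these were 677 genes with dDAVP, from 280 without dDAVP replicate 1 of 12 h to 2012 without vehicle replicate 2 of 12 h. With vehicle they were 2995, from 334 without vehicle replicate 2 of 24 h to 10984 without vehicle replicate 2 of 12 h.

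Rasl11a changed over time with dDAVP, where it averaged 3.61 ± 0.805, 6.00 ± 1.02, 7.91 ± 0.744 and 7.90 ± 1.24 CPM (SD) at 3, 6, 12 and 24 h (edgeR, adjusted p = 0.00491). Without the 3 h libraries, which weighed on the choice, the adjusted p over 6, 12 and 24 h was 0.347 in edgeR. It was 0.0156 with a filter of 5 CPM (edgeR) and 0.0036 on log2(TPM + 1) (limma). With vehicle it averaged 12.4 ± 2.63, 12.1 ± 0.915, 15.0 ± 3.40 and 17.5 ± 2.18 CPM and did not pass (edgeR, adjusted p = 0.107). Leaving out vehicle replicate 1 or replicate 2 of 12 h gave 0.0372 and 0.0486. In the receptor-share model the dDAVP course passed with and without the 3 h libraries (adjusted p = 1.41e-05 and 0.00622, where 8.99% and 6.41% of all tested genes passed), and in vehicle 24 h differed from 3 h by 0.01 ± 0.148 on the log2 scale, against 0.50 ± 0.188 without that term.

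In order of mean CPM, the 4 dDAVP groups of Rasl11a came lowest (3, 6, 24 and 12 h) and the vehicle groups highest (6, 3, 12 and 24 h). Among neighbours in this order the libraries overlapped between dDAVP at 24 h and 12 h and between all successive vehicle groups. For Veph1 the order was dDAVP at 3 h and 6 h, vehicle at 6 h and 3 h, dDAVP at 12 h, vehicle at 12 h, dDAVP at 24 h and vehicle at 24 h. Among neighbours in this order, vehicle at 12 h overlapped with dDAVP at 12 h and at 24 h, and vehicle at 6 h with vehicle at 3 h. In CPM, time thus spread the Veph1 groups more than dDAVP did, whereas dDAVP divided the Rasl11a groups into 2 blocks. For Veph1 the sizes depended on the scaling. In TPM its means ran from 9.61 to 13.5 with vehicle and from 5.51 to 11.9 with dDAVP, both lowest at 6 h. In the receptor-share model 24 h lay above 3 h by 0.29 with vehicle and 0.87 with dDAVP. The change with dDAVP at 3 h was -0.70 in that model.

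The 2 genes were also compared library by library within each treatment, in 6 relations with p-values from 100000 permutations adjusted over the 6. In the 12 dDAVP libraries log2 CPM of Rasl11a and of Veph1 went together (Pearson r = 0.878, permutation p = 6e-05, adjusted 0.00018; Spearman rho = 0.818, permutation p = 0.0021, adjusted 0.006). Without the 2 libraries farthest from the median r was 0.807, but after subtraction of the mean of each time it was 0.158, so the relation did not hold within times. Both genes were chosen for low levels with dDAVP, which were lowest at 3 h, so the choice itself bears on this relation. The permutations also mixed the times in both treatments. The p-values of these relations in both treatments, and of those with the receptor share below, are therefore a description only. In the 12 vehicle libraries r was 0.892 (permutation p = 0.00026, adjusted 0.00052) and rho 0.797 (permutation p = 0.003, adjusted 0.006). There r was 0.829 without the 2 farthest libraries and 0.853 after subtraction of the time means. In log2(TPM + 1) the vehicle relation was r = 0.638 and missed the threshold (permutation, adjusted p = 0.0729).

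**Figure D3:**
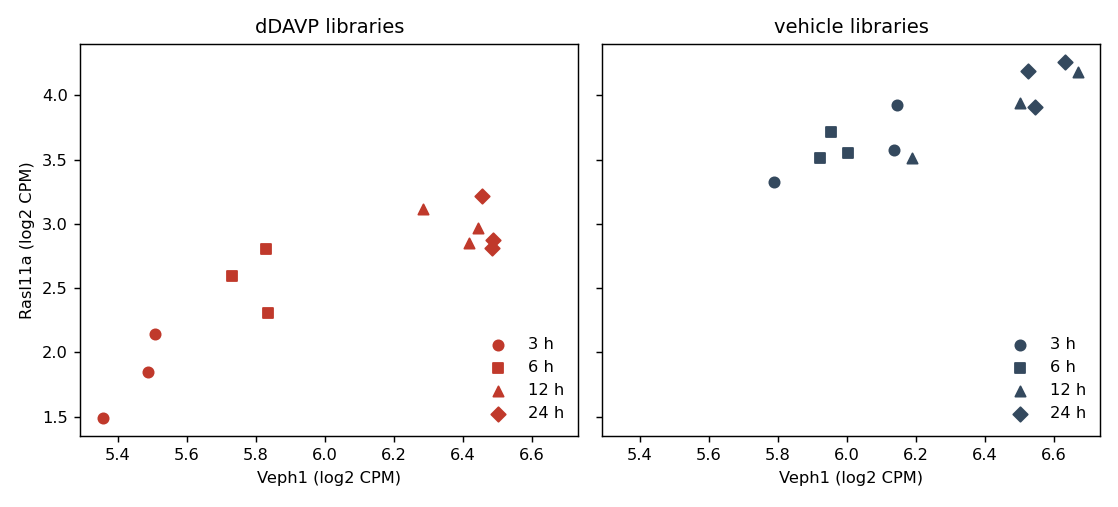
Level of Rasl11a against that of Veph1, both in log2 CPM, in the 12 dDAVP libraries (left) and the 12 vehicle libraries (right). Each point is a library and its shape gives the time in h. With dDAVP the points climb from the 3 h to the 12 and 24 h libraries, and vehicle libraries lie higher on the Rasl11a axis at the same Veph1 level.

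The receptor share was set against both genes in the same way. In the 12 dDAVP libraries Pearson r with log2 share was -0.467 for Rasl11a (permutation p = 0.13, adjusted 0.15) and -0.286 for Veph1 (permutation p = 0.37, adjusted 0.37). In the 12 vehicle libraries both genes went against it, with r = -0.947 for Rasl11a (permutation p = 1e-05, the lowest possible with 100000 permutations, adjusted 6e-05; rho = -0.902) and -0.823 for Veph1 (permutation p = 0.0012, adjusted 0.0018; rho = -0.776). Without the 2 farthest vehicle libraries r was -0.913 and -0.703, and after subtraction of time means -0.925 and -0.829. The vehicle relations were not found in log2(TPM + 1), where r was -0.401 for Rasl11a and -0.135 for Veph1. CPM and the share have the same library total beneath them, and the part of the share in the other relations was not tested.

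**Figure D4:**
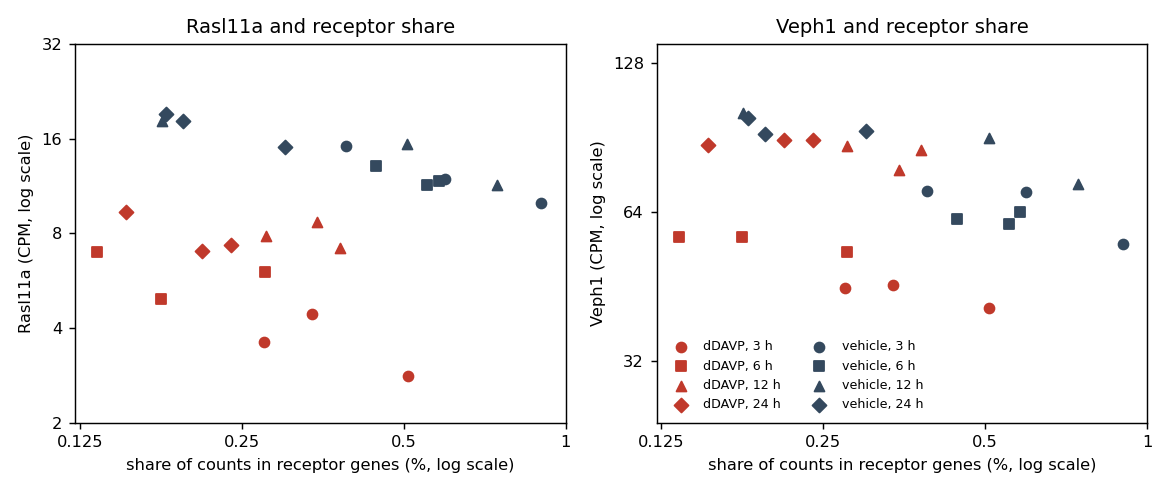
CPM of Rasl11a (left) and Veph1 (right) against the receptor share in percent of counts, both on log scales. Points are the 24 libraries, red for dDAVP and dark for vehicle, and shapes give the time in h. Vehicle libraries fall along a downward line in both panels (r = -0.947 and -0.823), and dDAVP libraries of Rasl11a lie below vehicle libraries of like share.

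The nearest relative of Rasl11a, Rasl11b, encodes a Ras-like GTPase of the same small group. Rasl11b did not share the separation of all 12 dDAVP from all 12 vehicle libraries. It was at 40.3 to 89.2 CPM in the 12 dDAVP libraries and at 46.8 to 111.1 CPM in the 12 vehicle libraries. It averaged 65.8 ± 15 CPM (SD, n = 12) with dDAVP and 76.2 ± 23.5 CPM with vehicle. Its mean log2 change was -0.19 ± 0.067 (SE; edgeR, adjusted p = 0.0366), with 0.09 at 6 h, and no single time passed in that model. The call is unsteady: it was lost with median-of-ratios size factors (adjusted p = 0.333) and without 13 of the 24 libraries taken out in turn (up to 0.0759), and in the receptor-share model the change was -0.36 (adjusted p = 7.41e-06). At single times, 3, 12 and 24 h passed in the receptor-share model (log2 -0.43, -0.36 and -0.34, edgeR, adjusted p = 0.00265, 0.0221 and 0.025). In TPM Rasl11b was the most abundant of the 3 genes, at 25.8 TPM. There its groups did not overlap at any time. The highest dDAVP libraries were at 19.9, 18.1, 27.1 and 28.2 TPM at 3, 6, 12 and 24 h. The lowest vehicle libraries were at 25.3, 21.3, 32.2 and 31.9 TPM. How many of all genes separate this way in TPM was not counted.

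The other genes of the pathways named above gave counts that hang on the scaling, so no direction can be given for the groups. Over all tested genes the mean effect was called for 33.1% in the model with group means only (16.7% higher and 16.4% lower with dDAVP) and for 1.22% in the receptor-share model (0.951% and 0.272%). On log2(TPM + 1) it was called for 35.6% (0.582% higher and 35% lower with dDAVP). The lists and the members called higher and lower in the mean effect were as follows. Of 31 tested Ras subfamily GTPases (34 listed), 8 were higher with dDAVP and 3 lower, with a median log2 change of 0.14. Of 30 genes of RNA polymerase I transcription, the machinery with which Rasl11a has been linked, 18 were higher and 0 lower (median 0.19). Of 26 genes of insulin, TOR and FOXO signalling 15 were higher and 0 lower (median 0.16), and of 26 genes of Hippo and TGF-beta receptor signalling 9 were higher and 0 lower (median 0.15). These medians lie beside 0.15 for all genes at 5 CPM or more and -0.20 for all tested genes.

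In the receptor-share model the counts were 0 higher and 1 lower, 0 and 0, 0 and 0, and 0 and 0 for these lists in the same order, with 2, 1, 2 and 4 members at an unadjusted p under 0.05 and medians of 0.03, 0.02, 0.03 and 0.02 (edgeR). On log2(TPM + 1) the calls ran the other way, with 0 higher and 7, 5, 8 and 9 lower. Leaving out single libraries gave between 0 calls and 18, 28, 19 and 14 calls in the 4 lists.

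The members with the smallest p show the size of these differences. Among the GTPases, Rheb, the activator of TOR, was at 154.6 CPM with dDAVP and 132.9 CPM with vehicle (log2 0.22, edgeR, adjusted p = 0.0212). Ralb was at 99.9 CPM with dDAVP and 87.0 CPM with vehicle (0.20), and Nkiras2 at 63.3 CPM with dDAVP and 55.4 CPM with vehicle (0.20). Rasl12 was at 0.94 CPM with dDAVP and 1.496 CPM with vehicle (log2 -0.67, adjusted p = 0.0245). Of the polymerase I genes, the subunits Polr1d (log2 0.29, adjusted p = 0.0147), Polr2k (0.29) and Polr2f (0.23) and the selectivity factor subunit Taf1d (0.19) led. In insulin and TOR signalling these were Irs2 (0.30), an adaptor of the insulin receptor, Tsc1 (0.20), Mtor (0.20) and Insr (0.20), with adjusted p between 0.0164 and 0.0216 in edgeR. In the Hippo and TGF-beta list they were the receptor Tgfbr1 (0.21), the kinase Lats1 (0.21), the transcription factor Tead2 (0.20) and the repressor Skil (0.22). None of these 16 genes passed in the mean effect in the receptor-share model. On log2(TPM + 1) 11 of the 16 had the opposite sign, and Tgfbr1 (-0.22, adjusted p = 0.0401) and Tead2 (-0.25, adjusted p = 0.0442) were called lower with dDAVP (limma).

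No tested neighbour on the chromosome was called lower in the mean effect of the model with group means only. Protein-coding genes that start within 500 kb of either end, and any gene that overlaps, were listed: 19 around Rasl11a, of which 11 had enough counts to be tested, and 8 around Veph1, of which 5 did. Around Rasl11a 5 of 11 genes were higher in the mean effect and 0 lower, beside 16.7% higher and 16.4% lower over all tested genes. They were Polr1d (log2 0.29 ± 0.068, edgeR, adjusted p = 0.0147), Rpl21 (0.28), Lnx2 (0.27), Mtif3 (0.26) and Gtf3a (0.19). The median log2 change in the mean effect was 0.15 for genes at 5 CPM or more and -0.20 for all tested genes. The share called among genes of like level was not counted, so no local excess can be read from these 5. Rpl21, a ribosomal protein gene that starts nearest to Rasl11a, was at 372.7 CPM with dDAVP and 308.5 CPM with vehicle. Usp12 was at 22.1 CPM with dDAVP and 20.9 CPM with vehicle (log2 0.08, adjusted p = 0.375), and Wasf3, Gm3404, Gm3409, Pdx1 and Cdx2 had under 1.4 CPM on average in either treatment and did not pass. In the receptor-share model none passed, at 0 higher, 0 lower and 2 of 11 at an unadjusted p under 0.05. None passed on log2(TPM + 1) either (limma), with 1 of 11 at an unadjusted p under 0.05, and Gtf3a was at -0.05.

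Around Veph1, Ccnl1, a cyclin gene, was at 124.7 CPM with dDAVP and 109.4 CPM with vehicle (log2 0.19 ± 0.069, edgeR, adjusted p = 0.0413), and this call was lost in the receptor-share model. Ccnl1 was at -0.10 on log2(TPM + 1) (limma, adjusted p = 0.0885). At 6 h 1 of the 5 was called higher and 2 lower in edgeR, beside a background of 20.9% higher and 17.2% lower over the whole table (38.1% in either direction). By limma on log2(TPM + 1) 3 were called lower in the mean effect, Lekr1, Ptx3 and Tpi-rs2. Lekr1 was at 5.98 CPM with dDAVP and 6.20 CPM with vehicle. Ptx3, which encodes a secreted pattern-recognition protein, lies within Veph1 on the opposite strand without a shared exon base, and was at 0.432 CPM with dDAVP and 0.581 CPM with vehicle (log2 -0.48, adjusted p = 0.0821). Gm37822, a provisional gene model on the opposite strand that shares exon bases with Veph1, was at 2.29 CPM with dDAVP and 2.86 CPM with vehicle (log2 -0.31, adjusted p = 0.18), and the pseudogene Tpi-rs2 at 0.185 CPM with dDAVP and 0.291 CPM with vehicle. Whether the authors' counting used strand is not given in the sources used here, so reads from Veph1 and Gm37822 may not be told apart. Of 7054 words of 31 bases in the Veph1 exons, 291 (4.13%) also occur in exons of other genes, against 0 of 1167 for Rasl11a.

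**Figure D5:**
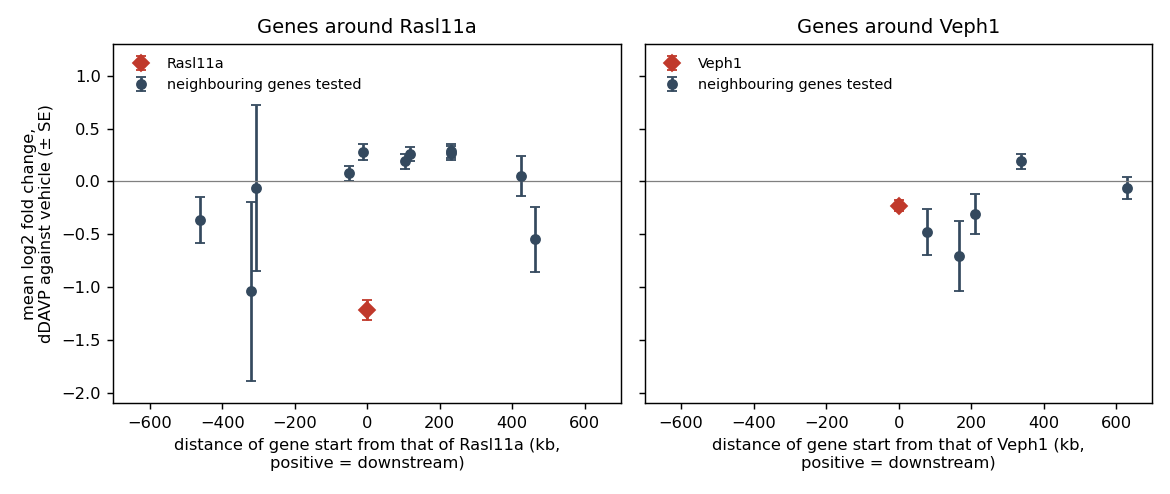
Mean log2 fold change, dDAVP against vehicle, with SE, of Rasl11a (left) and Veph1 (right) and of the genes around them, against the distance of gene starts in kb. Diamonds are Rasl11a and Veph1 and circles are the 11 and 5 neighbours tested. Rasl11a, at -1.22, stands below the 5 called neighbours at 0.19 to 0.29, and the wide bars belong to genes at under 1 CPM.

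Clone, predicted-gene and small RNA names were left out by the pattern of the symbol. Among the 10956 other genes at 5 CPM or more, the profiles nearest to Rasl11a over the 24 libraries (Pearson r of log2 CPM) were those of Mmp15, a membrane-bound matrix metalloproteinase (0.857), and Scnn1g, which encodes the gamma chain of the sodium channel ENaC (0.834). Next came Angpt2, a ligand of the receptor Tie2 in vessels (0.794), Ptger1, the EP1 receptor of prostaglandin E2 (0.776), and Tmem136 (0.774). Scnn1g was at 11.6 CPM with dDAVP and 17.4 CPM with vehicle, with log2 changes of -0.96, -0.71, -0.56 and -0.34 at 3, 6, 12 and 24 h. Ptger1 was at 15.5 CPM with dDAVP and 24.7 CPM with vehicle, with -1.55, -1.58, -0.57 and -0.06. Mmp15 kept a like change at all times, at -0.43, -0.55, -0.39 and -0.61. The likeness was smaller within groups: r after subtraction of group means was 0.407 for Mmp15, 0.514 for Scnn1g, 0.417 for Angpt2, 0.193 for Ptger1 and 0.264 for Tmem136.

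The genes nearest to Veph1 were closer in profile. They were Pdxk, pyridoxal kinase (r = 0.953), Plagl1, an imprinted zinc finger factor (0.926), Usp11, a deubiquitinase (0.92), Ppargc1a, the coactivator PGC-1alpha (0.916), and Frem2, an extracellular matrix protein gene (0.914). Within the 12 dDAVP libraries r with Veph1 was 0.955 for Pdxk and 0.942 for Plagl1, and within the 12 vehicle libraries 0.947 and 0.952. After subtraction of group means it was 0.76 for Pdxk, 0.818 for Plagl1, 0.688 for Usp11, 0.422 for Ppargc1a and 0.848 for Frem2. At 3 h the log2 changes were -0.35 for Pdxk, -0.29 for Plagl1, -0.12 for Usp11, -0.35 for Ppargc1a and -0.25 for Frem2, against -0.58 for Veph1. Plagl1 was at 0.05 at 6 h and 0.06 at 12 h. All these libraries share their depth scaling and their receptor share, and the genes were chosen for the likeness, so no test is given.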

How the data were processed

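RNA from 24 libraries was measured by sequencing of SMART-Seq HT cDNA made into Nextera libraries, per the labels' protocols. The authors deposited estimated counts per Ensembl gene, made from the reads without normalization, and a TPM table in the same layout. The submitters' processing notes name Salmon 0.14.10 and the build GRCm38.p6. Its settings, and how transcripts became genes, are not stated in the labels or headers.

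The counts were rounded for edgeR 4.0.16 in R 4.3.3, with limma 3.58.1 for TPM: TMM scaling (factors 0.814 to 1.326), filterByExpr over the 8 groups (29743 of 54432 genes kept), 1 mean per group over all 24 libraries, quasi-likelihood F tests and Benjamini-Hochberg adjustment over all genes tested with a threshold of 0.05. The step was tested on simulated counts, with changes put into genes at 5 CPM or more. At 3 h it recovered 37.3% of 1.5-fold and 92.5% of 2-fold changes, and 6.71% of calls were false. For the mean effect it recovered 88.1% of 1.5-fold changes, with 4.95% of calls false. The simulated libraries held no shared factor such as the receptor share, so the test does not cover how calls depend on it. CPM used TMM library sizes. Counting error (the inverse square root of the count) was at most 12.5%, for Rasl11a at 64 counts, and covers counting only. Replicates differed by a chi-square of at least 2.43 per gene, so no library duplicated another of its group. Libraries of different groups were not compared in this way. Gene names came from GENCODE M21 by identifier (54346 matched), and promoters from RefSeq, which held both genes.

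Alternatives were median-of-ratios (RLE) size factors, DESeq2 1.42.0, no filter, a filter of 5 CPM in a group, replicate number as a block, limma on log2(TPM + 1) and log2(TPM + 0.1), the log2 receptor share (1457 protein-coding genes) as a covariate, and leaving out each library. Time tests from 6 h on were added after seeing the data. Named genes were the 2 genes, Rasl11b, Aqp2, of each list the 4 members with the smallest p, all neighbours tested, and for each gene the 5 with the highest r. The 2 genes, the lists and the covariate were chosen with earlier results of these data known.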

Additional observations from a re-analysis of the deposited data

How the results depend on the processing

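Rasl11a kept its lower level with dDAVP at each time under all 8 alternatives and without each of the 24 libraries in turn. At 6 h its log2 change of -1.02 was -1.32 with the 5 CPM filter, -1.53 with the receptor share, -1.38 on log2(TPM + 1) and -1.62 on log2(TPM + 0.1), and -1.21 to -0.97 without single libraries; its mean effect was -1.47 on log2(TPM + 0.1). For Veph1 the 3 h change was -0.75 with the 5 CPM filter and -0.77 on log2(TPM + 0.1). Its 6 h change was -0.05 with RLE factors and with DESeq2 (-0.048 in both), -0.47 with the 5 CPM filter, -0.42 with the receptor share, -0.70 on log2(TPM + 1), -0.79 on log2(TPM + 0.1), and -0.25 to -0.13 without single libraries. Its 12 h change ranged over -0.20 to 0.077 without single libraries and reversed without vehicle replicate 2. Its 24 h change was -0.05 with RLE factors and with DESeq2, -0.15 on log2(TPM + 1) and -0.16 on log2(TPM + 0.1), and its mean effect -0.36 with the 5 CPM filter, -0.43 on log2(TPM + 1) and -0.47 on log2(TPM + 0.1). The cause was not tested.

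The adjusted p of the time course was 0.347 for Rasl11a with dDAVP from 6 h on, 0.0667 for Veph1 in vehicle on log2(TPM + 0.1), and 0.0372 to 0.365 for Rasl11a in vehicle without single libraries. In vehicle, Pearson r on log2(TPM + 1) and log2(TPM + 0.1) was 0.638 and 0.641 between the 2 genes, -0.401 and -0.40 (-0.3997) between Rasl11a and the receptor share, and -0.135 and -0.134 (-0.1345) between Veph1 and that share.

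List members called in the mean effect depended on the scaling, the filter and single libraries. With RLE factors they were 6, 11 and 9 for the Ras, polymerase I and insulin lists. With no filter they were 2, 8, 6 and 4, with the 5 CPM filter 3, 5, 1 and 3, and with the receptor share 1, 0, 0 and 0, for the Ras, polymerase I, insulin and Hippo lists. On log2(TPM + 1) they were 7, 5 and 8 for the first 3 lists, and on log2(TPM + 0.1) 7, 5, 5 and 4. Without single libraries they ranged over 0 to 18, 0 to 28, 0 to 19 and 0 to 14. Neighbours called were 6, against 0 with the receptor share, 3 in each TPM fit, and 0 to 8 without single libraries. Mean effects reversed on log2(TPM + 1) and log2(TPM + 0.1) for Rheb (-0.01 in both; -0.0143 and -0.0145), Ralb (-0.0518 and -0.0536), Nkiras2 (-0.0328 and -0.0344), Polr2f (-0.00345 and -0.00348), Taf1d (-0.0813 and -0.0824), Tsc1 (-0.101 and -0.121), Insr (-0.0217 and -0.0238), Tgfbr1 (-0.222 and -0.254), Lats1 (-0.0344 and -0.0439), Tead2 (-0.251 and -0.259), Skil (-0.0419 and -0.0479), Gtf3a (-0.047 and -0.0477; -0.00334 with the receptor share) and Ccnl1 (-0.0997 and -0.102).

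Over all genes the mean effect was called for 9854 genes, against 6300 with RLE factors, 4930 with no filter, 3963 with the 5 CPM filter and 364 with the receptor share, and for 1227 to 16748 without single libraries. Genes called over time with dDAVP were 677, against 200 with RLE factors and 2675 with the receptor share; with vehicle they were 2995, against 738 and 771. Replicate numbers did not pair the libraries: over 12 pairs of the same time and number the correlation of deviations was -0.422 to 0.533, and 10 of 24 libraries correlated best with their own number. With the replicate block the adjusted p over time was 0.00129 for Rasl11a with dDAVP and 0.052 with vehicle, and 2.74e-06 and 0.000882 for Veph1. The lowest count of Rasl11a was 64, with dDAVP at 3 h.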
